A study of Rattus norvegicus with 16 samples.

Results

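The genes described here carry fatty acids through oxidation and storage. They were a list of 38 gene names, picked by name with earlier results of these data known and with no threshold on a measured value, and 37 of them have a row in the deposited table of 13222 genes. Eci2, an enoyl-CoA isomerase, is not among the rows analysed here. Every one of the 37 was read at least 21 times in every rat, so no member came into the comparison through a high group alone.

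Glomeruli were sieved on day 11 from the kidneys of male Wistar rats of about 175 g, and poly(A) RNA was sequenced. The 4 groups held 4 rats each. Control rats are labelled healthy. The other 3 groups received an intravenous injection of puromycin aminonucleoside (PAN), a toxin that damages podocytes, the cells whose foot processes hold the filtration slits of the glomerulus. The treated groups were then gavaged daily with pioglitazone, a thiazolidinedione agonist of the receptor PPARγ, or with GQ-16, also described by the submitters as a PPARγ agonist. The labels give the group written PAN no drug, and a sham vehicle is named in the treatment protocol. They give no doses, no genetic change and no batch, and whether the healthy rats were gavaged is not given in the sources used here. Sieved glomeruli are a mixture of cell types, so fewer cells of a type and less RNA per cell cannot be told apart in any result below.

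Cells burn long-chain fatty acids by coupling them to coenzyme A, passing them into mitochondria through the carnitine shuttle and cutting them down in a repeated cycle of dehydrogenation, hydration, dehydrogenation and thiolysis. Fatty acids that are not burned are esterified to triglyceride and kept in droplets coated by perilipins. Many of these genes are known targets of the PPAR family of nuclear receptors, which bind, with RXR, to a direct repeat of the half-site AGGTCA spaced by 1 base. In the kidney the proximal tubule is the cell type best known for heavy use of fatty acids.

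RefSeq's set for build GRCr8 held 28 promoters of 27 of the 37 genes, with 2 for Plin2. Each window ran from 250 bases before the annotated start to 50 after it. The direct repeat AGGTCANAGGTCA was searched on both strands, counting mismatches over its 12 fixed letters. No promoter of a listed gene held it exactly, and 0.0538% of all 33469 promoters did. With 1 mismatch allowed, only the promoter of Acadvl, the very-long-chain acyl-CoA dehydrogenase, held it, which is 3.57% of the listed genes' promoters beside 0.439% of all. With 2 mismatches allowed, Etfa and Slc25a20 were added, which is 10.7% beside 3.77% of all promoters. The Etfa match reads AGGGCAAAGGTAA and the Slc25a20 match AGGTGAAAGGTCG. A match of letters describes the sequence and shows no bound site.

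The 250 bases before the start are shown, 5′ to 3′ on the gene's own strand, for 4 of these genes. Acadvl is shown for the closest match, in capitals. Hadha is shown because it and Hadhb, which encode the subunits of 1 enzyme complex, lie head to head, and the capitals mark the 200 bases that also stand before the start of Hadhb. Pdk4 and Ucp2 are shown because their levels differed between groups below, and neither window holds the repeat within 2 mismatches. The windows are chr10:55236706-55236955 on the minus strand for Acadvl, chr6:31907551-31907800 on the plus strand for Hadha, chr4:34568330-34568579 on the minus strand for Pdk4 and chr1:164251123-164251372 on the plus strand for Ucp2.
Acadvl: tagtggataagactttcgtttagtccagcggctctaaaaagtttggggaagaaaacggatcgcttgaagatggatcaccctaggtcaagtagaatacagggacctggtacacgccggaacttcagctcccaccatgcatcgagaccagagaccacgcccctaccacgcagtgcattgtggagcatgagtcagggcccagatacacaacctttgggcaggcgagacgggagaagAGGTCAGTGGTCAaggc
Hadha: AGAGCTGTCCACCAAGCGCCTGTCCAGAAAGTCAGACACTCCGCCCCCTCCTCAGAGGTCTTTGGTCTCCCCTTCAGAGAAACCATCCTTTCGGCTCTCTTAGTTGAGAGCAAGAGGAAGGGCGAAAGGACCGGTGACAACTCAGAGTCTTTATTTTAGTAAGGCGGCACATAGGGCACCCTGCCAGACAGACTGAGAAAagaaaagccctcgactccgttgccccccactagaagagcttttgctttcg
Pdk4: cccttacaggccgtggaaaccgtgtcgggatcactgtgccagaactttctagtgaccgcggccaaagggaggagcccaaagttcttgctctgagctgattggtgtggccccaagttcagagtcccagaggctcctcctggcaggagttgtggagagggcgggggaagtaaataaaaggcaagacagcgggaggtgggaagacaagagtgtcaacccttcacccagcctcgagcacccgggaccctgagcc
Ucp2: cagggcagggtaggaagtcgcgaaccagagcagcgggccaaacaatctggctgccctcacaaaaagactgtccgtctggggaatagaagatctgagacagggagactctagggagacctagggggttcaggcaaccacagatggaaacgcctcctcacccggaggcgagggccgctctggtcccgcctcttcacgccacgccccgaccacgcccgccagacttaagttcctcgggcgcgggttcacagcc

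Levels are given as CPM, read counts scaled so that every library has the same total over the genes of the table, and changes as differences of log2(CPM + 1) from limma, with p-values adjusted by the Benjamini-Hochberg method over all 13222 genes. A gene is called where the adjusted p is under 0.05. Libraries held 13351137 to 21977663 reads. Reads of the mitochondrial genome took 13.9% to 39.6% of a control library and 5.98% to 10.8% of a PAN library, and all other genes share what is left. The median gene of the table stood 0.28 higher on the log2 scale in PAN than in control. A second scaling, by the median ratio of each library to the average library, set that median at -0.0032, and its values are given beside the first. With the deposited scaling 2874 genes were called higher and 69 lower in PAN, and with median-ratio scaling 941 and 200. Podocyte markers summed to between 2920.5 and 10216 CPM in control and between 8026.5 and 11654 CPM in PAN. Of 12 podocyte markers 2 were called higher (1 with median-ratio scaling). In PAN 7 of 7 mesangial and smooth muscle markers were called higher (6 with median-ratio scaling), and 5 of 9 macrophage and leukocyte markers (0), which summed to between 238 and 335 CPM in control and between 289 and 829 CPM in PAN. Distal tubule and collecting duct markers were called lower for 5 of 13 (4), and proximal tubule markers for 0 of 23. Fits with the podocyte or the proximal tubule level as covariate are given with the calls, and the part of the other markers was not tested. Of 10 adipocyte markers 0 have a row.

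Against control, 4 of the 37 genes were called in PAN, all higher, at 10.8% of the list. The background was 21.7% of all genes called higher and 22.3% in either direction. With median-ratio scaling 2 of 37 were called, both higher, beside 7.12% of all genes higher, 1.51% lower and 8.63% in either direction. At an unadjusted p under 0.05 there were 7 of 37 as deposited, all higher, beside 42.1% of all genes. With median-ratio scaling 3 were higher and 5, Acadm, Hadh, Etfa, Mgll and Fabp3, were lower, beside 15.9% and 10.7% of all genes, and none of the 5 passed the adjusted threshold. The median change over the list was 0.11 on the log2 scale, beside 0.28 for all genes, and -0.19 beside -0.0032 with median-ratio scaling. The 4 genes were Pdk4, Cpt1b, Lpl and Ucp2, and the same 4 were those in which PAN and control rats did not overlap, as in 23.3% of all genes. Library numbers in the labels are 25 or higher for 3 PAN rats, 1 rat of each treated group and 0 control rats. With that as a covariate Cpt1b alone was called, beside 2.88% of all genes called higher. Pdk4, Lpl and Ucp2 still differed by 1.37, 0.65 and 0.61 (adjusted p = 0.201, 0.158 and 0.152 by limma). The list's median was then 0.25 beside 0.20 for all genes, and 0.05 beside 0.0031 with median-ratio scaling as well. In both fits the list did not lie below all genes. PAN rat 4 is the only PAN rat with a lower number and has the highest proximal tubule level of all 16, 8.49. Its part in these fits was not tested. The proximal tubule level as covariate gave a list median of 0.14 beside 0.29, and -0.09 beside -0.0072 with median-ratio scaling as well. With the podocyte level as covariate Cpt1b, Lpl and Ucp2 were called, beside 6.07% of all genes higher, Pdk4 was not (1.12, adjusted p = 0.162 by limma), and the list's median was -0.13 beside 0.09 for all genes.

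**Figure D1:**
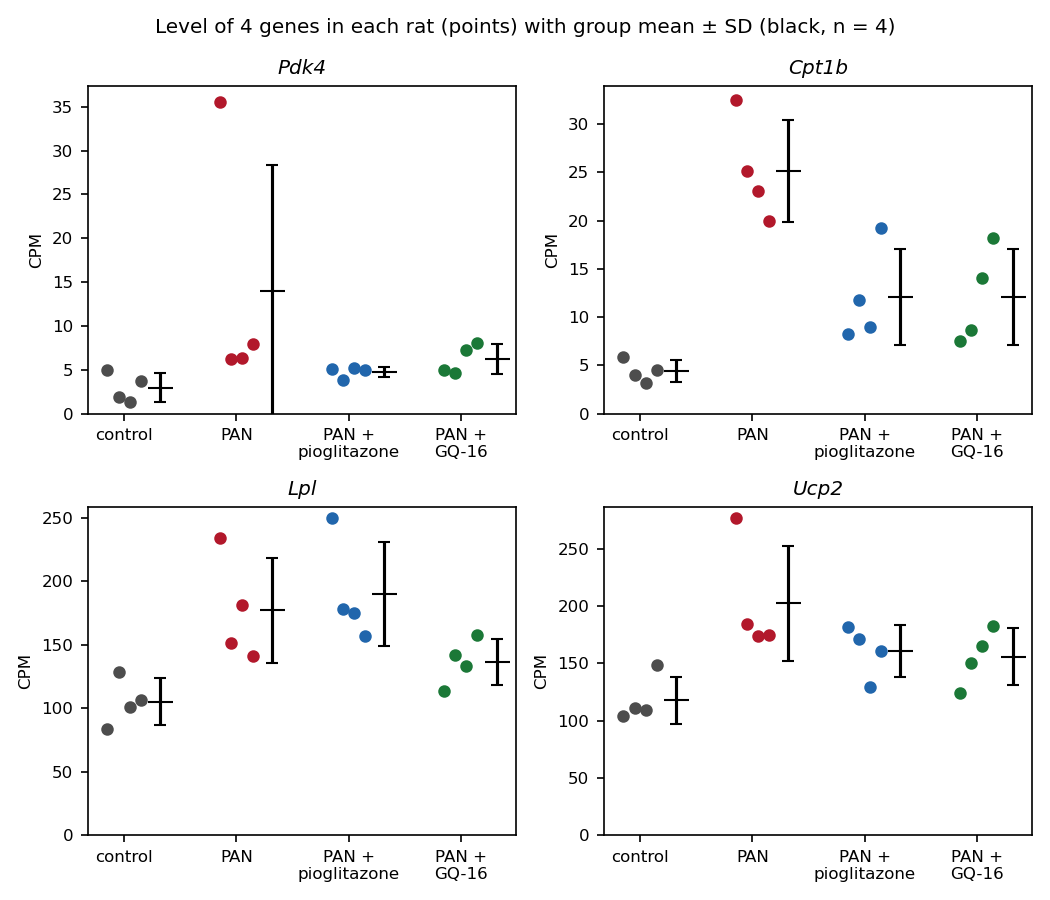
CPM (y axis, linear, from 0) of Pdk4, Cpt1b, Lpl and Ucp2 in each rat (points), by group, with the group mean and SD in black (n = 4). The 4 PAN rats lie above all 4 control rats in each panel, and the SD of Pdk4 in PAN runs below 0 and is drawn to the axis because PAN rat 1 stands at 35.6 CPM.

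Pdk4 encodes a kinase that switches off pyruvate dehydrogenase and so turns cells from glucose toward fatty acids. Control rats had 4.93, 1.83, 1.36 and 3.71 CPM and PAN rats 35.6, 6.20, 6.30 and 7.88 CPM. PAN rat 1 stood more than 4 times above the other PAN rats, and all 4 lay above every control rat. Pdk4 rose by 1.63 on the log2 scale (SE 0.42, adjusted p = 0.0168 by limma) and by 1.401 with median-ratio scaling (adjusted p = 0.0408). Without PAN rat 1 it still rose, by 1.07, and the call was lost without control rat 2 or control rat 3 and under 7 of the 11 alternatives that keep all rats. Rats given pioglitazone had 5.03, 3.84, 5.16 and 4.92 CPM, below every PAN rat, and rats given GQ-16 had 4.96, 4.61, 7.24 and 8.05 CPM, which overlapped the PAN rats. The other 3 pyruvate dehydrogenase kinases, Pdk1, Pdk2 and Pdk3, were not called in PAN.

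Of the 4 genes of the carnitine shuttle 1 was called, Cpt1b. It encodes the muscle form of carnitine palmitoyltransferase 1, the enzyme that commits long-chain fatty acids to mitochondrial entry. Control rats had 5.88, 3.98, 3.13 and 4.55 CPM, and PAN rats had 32.5, 25.1, 23.0 and 20.01 CPM. The lowest PAN rat was more than 3 times the highest control rat, and the group means differed 5.74-fold. Cpt1b rose by 2.28 on the log2 scale (SE 0.28, adjusted p = 0.000258 by limma) and by 2.02 with median-ratio scaling (adjusted p = 0.000334). It was called under each of the 12 alternatives that keep all rats and without any 1 control or PAN rat.

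In treated rats Cpt1b lay between the other groups, at 8.26, 11.7, 9.02 and 19.2 CPM with pioglitazone and 7.48, 8.65, 14.01 and 18.2 CPM with GQ-16. All 8 treated rats lay above every control rat and below every PAN rat. Against control, Cpt1b rose by 1.23 with pioglitazone (SE 0.28, adjusted p = 0.0231 by limma). With GQ-16 the difference was also 1.23 and missed the threshold (adjusted p = 0.0712), while with median-ratio scaling it was 1.08 and passed (adjusted p = 0.0463). The pioglitazone call was lost without control rat 2 or 3 or pioglitazone rat 2 or 4, with adjusted p-values of 0.0698 to 0.0947.

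Cpt1b is named for muscle, and some genes known from striated muscle were also higher in PAN. Of 18 such markers 8 have a row, and 4 of them, Myom2, Pygm, Ldb3 and Synpo2l, were called higher under either scaling, beside 21.7% and 7.12% of all genes. The other 4 were not called, with differences of 0.94 for Tnnc1 and for Cmya5, -0.07 for Actn3 and -0.14 for Mybpc2, while defining genes such as Ckm, Mb, Myh7 and Ttn have no row. The table keeps only genes that reach 2 CPM in at least 8 libraries. Ldb3 and Synpo2l, at 1.30 to 2.51 and 0.66 to 2.07 CPM in control rats, reached that mainly in the other groups. The count of markers called is therefore not free of this filter. The mean log2(CPM + 1) of the 8 markers was 2.06 to 3.28 in control rats and 5.08 to 5.32 in PAN rats. Within each treated group the rat with the most Cpt1b, pioglitazone rat 4 and GQ-16 rat 4, was also the rat with the highest mean of these 8 markers, 5.31 and 5.24, and with the highest podocyte marker mean, 9.08 and 9.44. Among PAN rats the muscle markers did not follow Cpt1b, since PAN rat 1, with the most Cpt1b, had a mean of 5.19 and PAN rat 4, with the least, 5.25. The podocyte marker means did, at 8.90, 8.70, 8.59 and 8.37 in PAN rats 1 to 4. In control rats both sets of means had the order of Cpt1b. They were 8.95, 6.65, 6.64 and 7.73 for podocyte and 3.28, 2.20, 2.06 and 2.85 for muscle markers. With pioglitazone the muscle means, 3.74, 4.67, 4.37 and 5.31, had that order, and the podocyte means, 7.35, 8.27, 8.73 and 9.08, did not. With GQ-16 neither set followed it in full. Pioglitazone rat 4 and GQ-16 rat 4 carry library numbers of 25 or higher, and PAN rat 4, the only PAN rat with a lower one, had 20.01 CPM. With the podocyte level as covariate Cpt1b rose in PAN by 1.81 (adjusted p = 0.000544 by limma). With the library number as covariate it rose by 1.74 (adjusted p = 0.00108), and by 1.57 with median-ratio scaling as well (adjusted p = 0.00232). The part of the muscle markers in the result was not tested. The close neighbour of Cpt1b in the RefSeq annotation, Chkb, a choline and ethanolamine kinase, rose by 0.72 in PAN (adjusted p = 0.0166 by limma) and by 0.43 with median-ratio scaling (adjusted p = 0.0249), and whether reads were shared between them was not tested.

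Cpt1a, the liver form of the same enzyme, was far more abundant and not called. Control rats had 180, 126, 135 and 172 CPM, PAN rats 208, 137, 158 and 173 CPM, rats given pioglitazone 135, 145, 153 and 173 CPM and rats given GQ-16 168, 117, 189 and 176 CPM. The groups overlapped throughout. The PAN difference was 0.14 on the log2 scale (95% interval -0.22 to 0.50), and -0.16 with median-ratio scaling. Cpt2, which rebuilds acyl-CoA inside the mitochondrion, and the carnitine carrier Slc25a20 were not called either, with differences of 0.26 and 0.33 that became -0.03 and 0.04 with median-ratio scaling.

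None of the 17 genes of the oxidation cycle, its peroxisomal counterpart, its auxiliary isomerases and its electron transfer chain was called in PAN under either scaling, beside 22.3% of all genes as deposited and 8.63% with median-ratio scaling. The 4 acyl-CoA dehydrogenases, which take the first hydrogen pair from chains of different length, differed by -0.21 to 0.11 on the log2 scale. Acadm, the medium-chain enzyme, had 207, 135, 189 and 173 CPM in control and 102, 154, 151 and 212 CPM in PAN. It had 123, 164, 206 and 123 CPM with pioglitazone and 208, 132, 166 and 168 CPM with GQ-16. The PAN rats spanned the control range and went beyond it at both ends, and the difference was -0.21 (95% interval -0.68 to 0.25).

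The hydration, second dehydrogenation and thiolysis steps are carried by Hadha, Hadhb, Hadh and Acaa2, and these differed by -0.31 to 0.29. Hadha and Hadhb, whose promoters are the head-to-head pair shown above, averaged 148 and 119 CPM in control and 179 and 124 CPM in PAN. The peroxisomal enzymes Acaa1a, Ehhadh and Hsd17b4, which shorten very long chains, differed by -0.10 to -0.08. Ech1, Eci1 and Decr1, which prepare unsaturated chains for the cycle, differed by 0.10 to 0.40, and Etfa, Etfb and Etfdh, which pass the electrons on to the respiratory chain, by -0.16 to 0.09. With median-ratio scaling 16 of these 17 genes had negative differences, the exception being Ech1 at 0.10, beside 50.5% of all genes. With the library number as covariate as well, 9 of the 17 were negative, beside 49.3% of all genes.

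**Figure D2:**
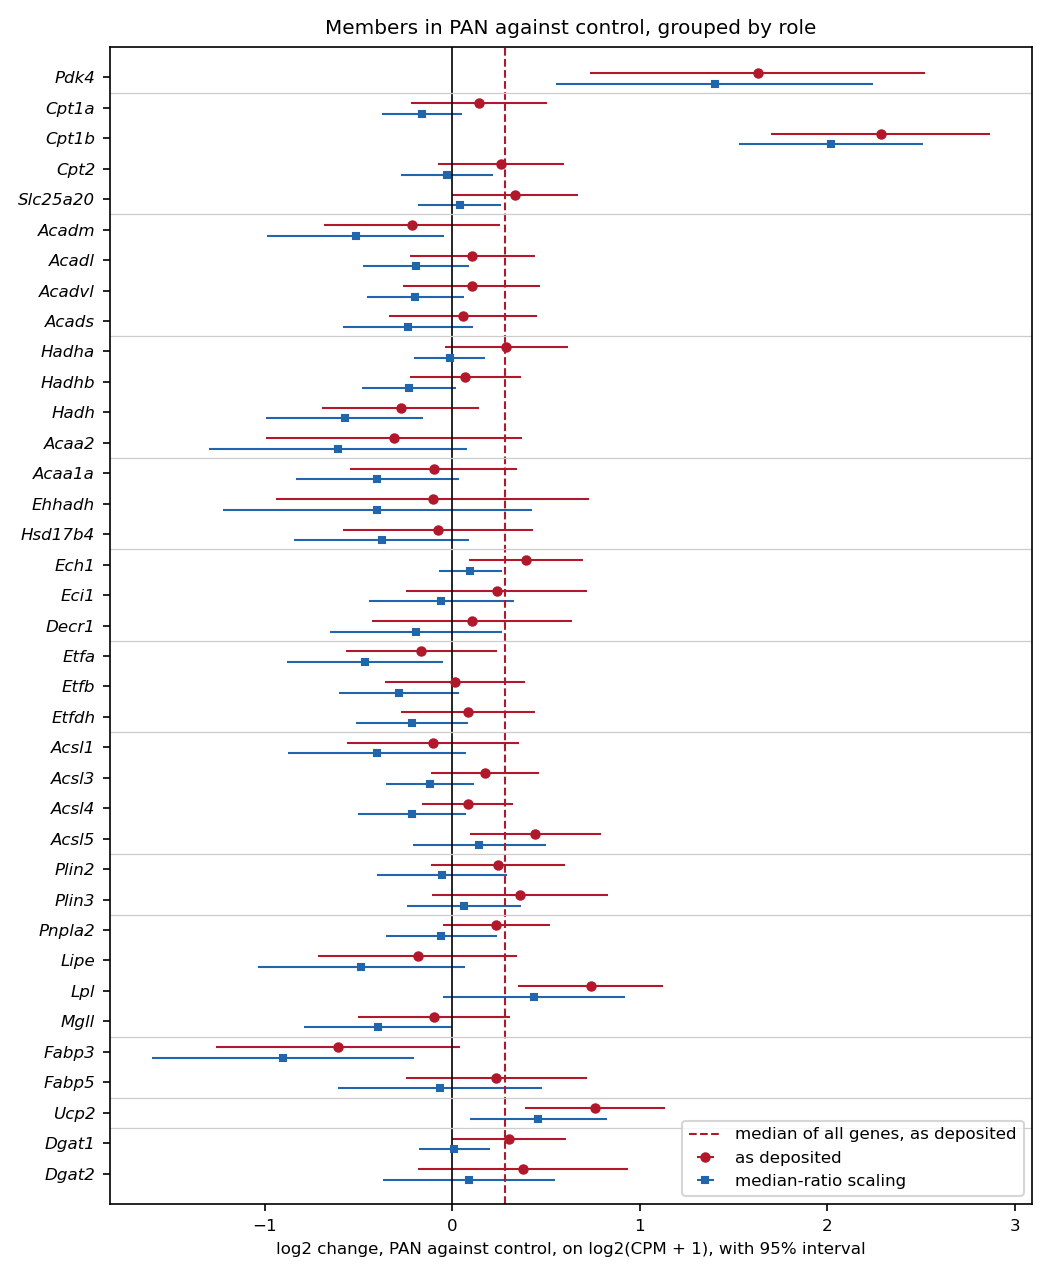
Log2 change in PAN against control (x axis, on log2(CPM + 1)) with its 95% interval for each of the 37 genes, ordered by role, as deposited (red) and with median-ratio scaling (blue). Pdk4 and Cpt1b stand apart to the right under both scalings, and most other genes lie left of the dashed median of all genes at 0.28.

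Of the 15 genes of uptake, activation, storage and uncoupling 2 were called higher as deposited, beside 21.7% of all genes, and 0 with median-ratio scaling, beside 7.12%. Lpl encodes lipoprotein lipase, which frees fatty acids from circulating triglyceride at the vessel wall. Control rats had 83.6, 129, 101 and 106 CPM and PAN rats 234, 151, 181 and 141 CPM, with no overlap. Lpl rose by 0.74 (SE 0.18, adjusted p = 0.0137 by limma), but with median-ratio scaling the difference was 0.44 and missed the threshold (adjusted p = 0.229). Without PAN rat 1 the difference was 0.60 and also missed it (adjusted p = 0.0540).

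Rats given pioglitazone had 250, 178, 175 and 157 CPM of Lpl, all above the control rats, and rats given GQ-16 had 113, 142, 133 and 157 CPM, which overlapped them. Lpl rose by 0.84 with pioglitazone against control (SE 0.18, adjusted p = 0.0205 by limma), and with median-ratio scaling the difference was 0.63 (adjusted p = 0.144). With GQ-16 it was 0.38 (adjusted p = 0.214). The lipases that empty droplets from within, Pnpla2, Lipe and Mgll, differed in PAN by -0.19 to 0.24 and were not called.

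Ucp2 encodes a carrier of the inner mitochondrial membrane. Control rats had 104, 111, 109 and 149 CPM, PAN rats 277, 184, 174 and 175 CPM, rats given pioglitazone 182, 172, 129 and 161 CPM and rats given GQ-16 124, 150, 165 and 183 CPM. PAN rats lay above all control rats, and treated rats overlapped both groups. Ucp2 rose in PAN by 0.76 (SE 0.18, adjusted p = 0.00944 by limma), while with median-ratio scaling the difference was 0.46 (adjusted p = 0.110). PAN rat 1, the highest for Pdk4, Cpt1b, Lpl and Ucp2 among PAN rats, also had the highest macrophage and leukocyte marker mean of all 16 rats, 5.51 beside 3.79 to 4.61 in the others, and the lowest mitochondrial share. The part of these in the result was not tested. Without that rat Pdk4, Cpt1b and Ucp2 were still called.

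Plin2, the droplet coat protein of most non-fat cells, was not called. It had 48.9, 38.4, 46.0 and 49.0 CPM in control, 83.1, 50.8, 46.5 and 42.8 CPM in PAN, 52.7, 43.6, 47.1 and 43.4 CPM with pioglitazone and 46.7, 40.0, 45.2 and 36.9 CPM with GQ-16. PAN rat 1 was again high and the other PAN rats lay in or near the control range, with a difference of 0.24 (95% interval -0.12 to 0.60) that became -0.05 with median-ratio scaling. Plin3, a second coat protein, and Dgat1 and Dgat2, which make the last bond of triglyceride, differed by 0.30 to 0.38 and were not called. The acyl-CoA synthetases Acsl1, Acsl3, Acsl4 and Acsl5 differed by -0.10 to 0.44.

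Fabp3, a cytosolic fatty acid carrier of heart and muscle, had the lowest difference of the list. It had 57.3, 41.9, 48.8 and 44.6 CPM in control, 17.2, 33.2, 31.3 and 51.1 CPM in PAN, 22.7, 32.7, 48.9 and 23.0 CPM with pioglitazone and 60.0, 32.1, 41.5 and 26.1 CPM with GQ-16. Of the 4 PAN rats 3 lay below every control rat, and PAN rat 4 did not. The difference was -0.61 on the log2 scale (SE 0.31, adjusted p = 0.139 by limma) and -0.90 with median-ratio scaling (adjusted p = 0.0999). Fabp5, its relative in epithelia and macrophages, had a difference of 0.23 and was not called.

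Other genes of the pathway, taken from lists that hold no member, are set here beside the 21.7% of all genes called higher in PAN and the 0.522% called lower. Of 27 other mitochondrial oxidation and ketone genes with a row, 1 was called as deposited. With median-ratio scaling Acadsb, a branched-chain acyl-CoA dehydrogenase, was called lower (-0.59, adjusted p = 0.0346 by limma). Of 21 peroxisomal lipid genes 2 were called, among them Abcd2 (0.68), and of 24 other droplet and triglyceride genes 2, Slc27a3 (0.95) and Gpat4 (0.36). Abcd2, Slc27a3 and Gpat4 were not called with median-ratio scaling.

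Of 20 genes for PPAR receptors, partners and cofactors 3 were called higher and 1 lower in PAN, a share near the 22.3% of all genes. Ppard, the PPAR that drives oxidation genes in many tissues, rose from 34.4 ± 6.78 to 57.4 ± 8.19 CPM (SD, n = 4), by 0.73 on the log2 scale (adjusted p = 0.00882 by limma), and by 0.44 with median-ratio scaling (adjusted p = 0.0197). Prdm16, a cofactor best known in brown fat, fell by 0.66 (adjusted p = 0.0121 by limma) and by 0.93 with median-ratio scaling (adjusted p = 0.0103). Pprc1, a coactivator related to PGC-1, was called at 0.48 as deposited and not with median-ratio scaling. Of 13 other pyruvate dehydrogenase genes Pdp1, a phosphatase that works against the Pdk kinases, was called at 0.75 and not with median-ratio scaling, and of 4 other uncoupling carriers 0 were called. The medians of these 6 lists lay between -0.06 and 0.23, all below the 0.28 of all genes.

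No listed gene was called in either treated group against PAN. For pioglitazone 0 of 37 were called, beside 0.0% of all genes, and 4 of 37 had an unadjusted p under 0.05 beside 495 genes (3.74%) of the table. The 3 with the smallest p were Cpt1b, at -1.05 (95% interval -1.64 to -0.47, adjusted p = 0.916), Ech1, at -0.35 (-0.66 to -0.05, adjusted p = 0.916), and Pdk4, at -1.001 (-1.89 to -0.11, adjusted p = 0.916), all by limma. The pioglitazone and PAN rats did not overlap in these 3 and in Dgat1, at 10.8% of the list beside 2.76% of all genes. The list's median difference was -0.21, beside -0.09 for all genes, and -0.12 beside -0.01 with median-ratio scaling. Proximal tubule markers also stood lower, with medians of -0.37 and -0.29 under these scalings and 0 of 23 called. With the proximal tubule level as covariate the list's median was -0.07 beside -0.04 for all genes. It was -0.04 beside -0.0025 with median-ratio scaling as well.

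For GQ-16 against PAN 0 of 37 were called, beside 0.0151% of all genes. At an unadjusted p under 0.05 there were 1094 genes, 8.27% of the table. Cpt1b alone had an unadjusted p under 0.05 and no overlap, at 2.70% of the list beside 3.62% of all genes without overlap, with a difference of -1.06 (95% interval -1.64 to -0.47, adjusted p = 0.355 by limma). Plin2 and Ucp2 followed, at -0.35 and -0.36, with intervals that crossed 0. The list's median was -0.08 beside -0.11 for all genes. Both comparisons use the same PAN rats, and Cpt1b differed from PAN by nearly the same amount in each.

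**Figure D3:**
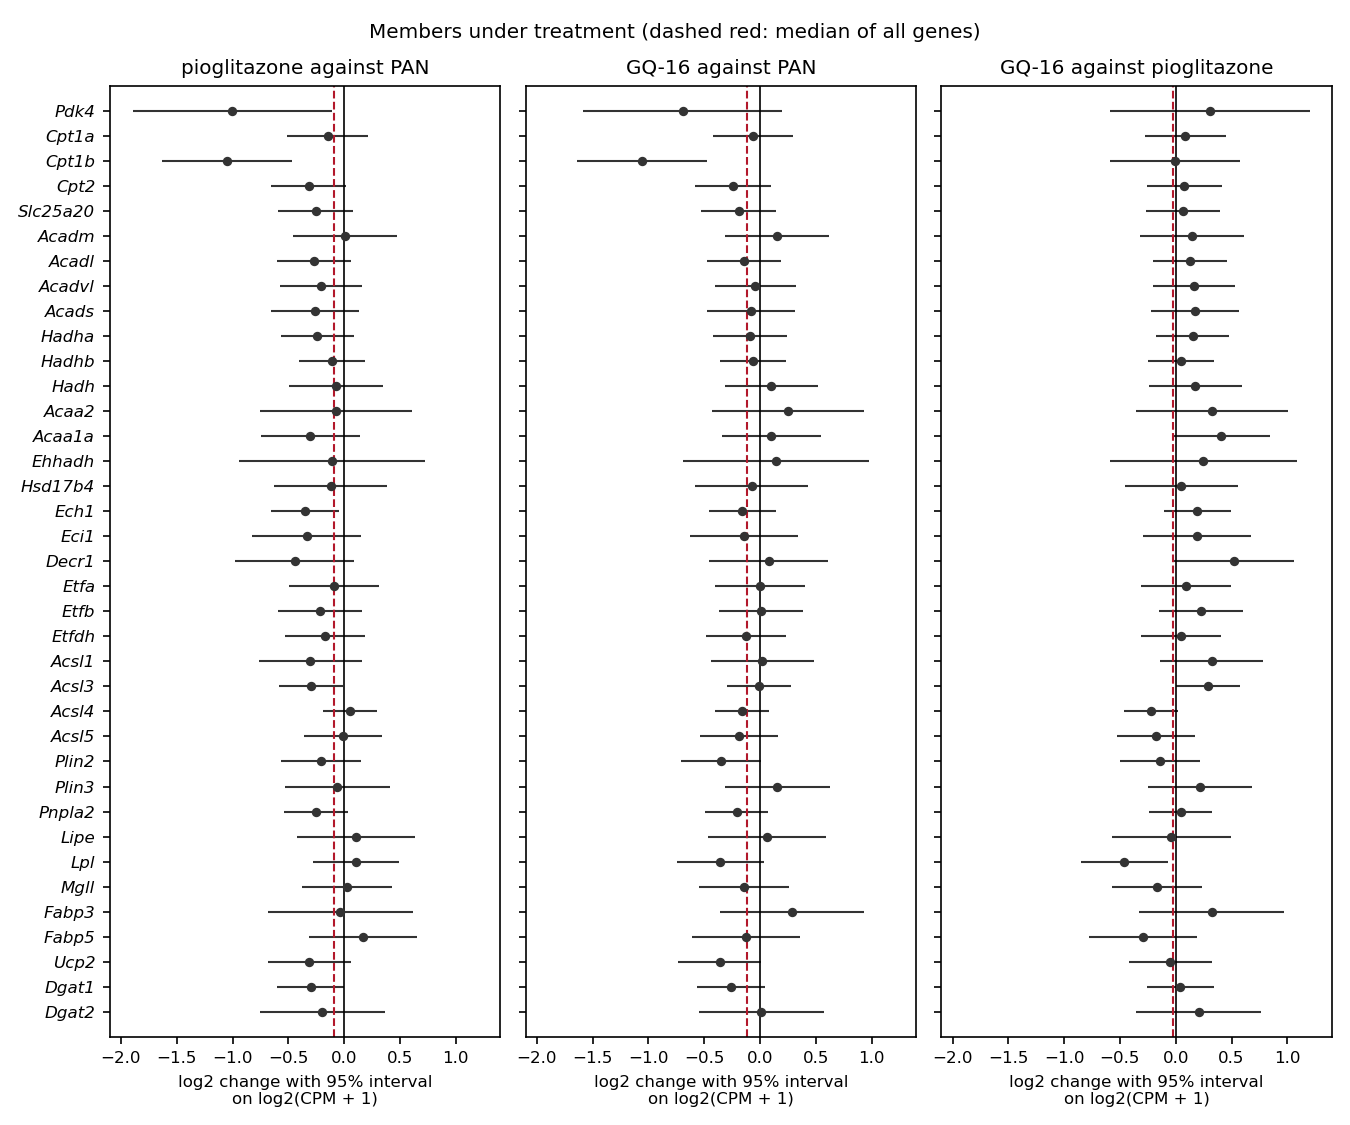
Log2 differences with 95% intervals (x axes, on log2(CPM + 1)) of the 37 genes for pioglitazone against PAN, GQ-16 against PAN and GQ-16 against pioglitazone. Cpt1b sits near -1.05 in the first 2 panels and near 0 in the third, and most other intervals cross 0.

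The agonists were compared at doses the labels do not state. For GQ-16 against pioglitazone 0 of 37 genes were called, beside 0.0% of all genes. At an unadjusted p under 0.05 there were 2 of 37, beside 5.94% of all genes. Median-ratio scaling gave 5 of 37, all higher, beside 2.65% of all genes higher and 4.61% lower. The list's median was 0.13 beside -0.02 for all genes, and 0.17 beside 0.02 with median-ratio scaling. With the proximal tubule level as covariate these were 0.05 beside -0.05, and 0.09 beside 0.01. The drugs' rats overlapped in all 37 genes, and 2.14% of all genes did not overlap. The smallest p was that of Lpl, at -0.46 (95% interval -0.85 to -0.07, adjusted p = 0.772 by limma). Acsl3 followed at 0.29 (0.0042 to 0.58, adjusted p = 0.827) and Decr1 at 0.52 (-0.01 to 1.06, adjusted p = 0.849). With median-ratio scaling Lpl, Acsl3 and Decr1 differed by -0.42 (-0.90 to 0.07), 0.33 (0.10 to 0.57) and 0.56 (0.11 to 1.02). As deposited Cpt1b differed by -0.0054 (-0.59 to 0.58). For 33 of 37 genes the interval lay within a 2-fold difference either way, and for Pdk4, Acaa2, Ehhadh and Decr1 it reached past that.

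Against healthy rats, 2 of 37 genes were called with pioglitazone, Cpt1b and Lpl, both higher, at 5.41% beside 4.7% of all genes called higher and 4.98% in either direction. With median-ratio scaling Cpt1b alone was called (1.05, adjusted p = 0.0300 by limma), beside 2.22% higher and 2.85% in either direction. With GQ-16 0 were called as deposited, beside 0.151% of all genes, with 4 of 37 at an unadjusted p under 0.05 beside 23.9% of all genes, and 1, Cpt1b, was called with median-ratio scaling, beside 0.666% of all genes higher and 0.0756% lower. Treated and control rats did not overlap in Cpt1b and Lpl with pioglitazone (14.1% of all genes) and in Cpt1b with GQ-16 (6.01%). With pioglitazone and median-ratio scaling 19 of the 37 genes had an unadjusted p under 0.05, beside 20.7% of all genes, and 17 of these 19 were lower than in control, beside 9.67% of all genes. They included Acaa1a (-0.62), Acsl1 (-0.62), Hadh (-0.57) and Decr1 (-0.55), and none of the 17 passed the adjusted threshold or had an unadjusted p under 0.05 as deposited. The proximal tubule markers stood lower in the same comparison, with a median difference of -0.77 over 23 genes and 0 called, and so did the distal tubule and collecting duct markers, with a median of -1.09 and 5 of 13 called lower. The list's median with median-ratio scaling was -0.29 beside 0.0090 for all genes, and -0.09 beside -0.0059 with the proximal tubule level as covariate. As deposited it went from -0.07 beside 0.21 to 0.07 beside 0.24, so the list still lay below all genes. The part of the distal markers was not tested.

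**Figure D4:**
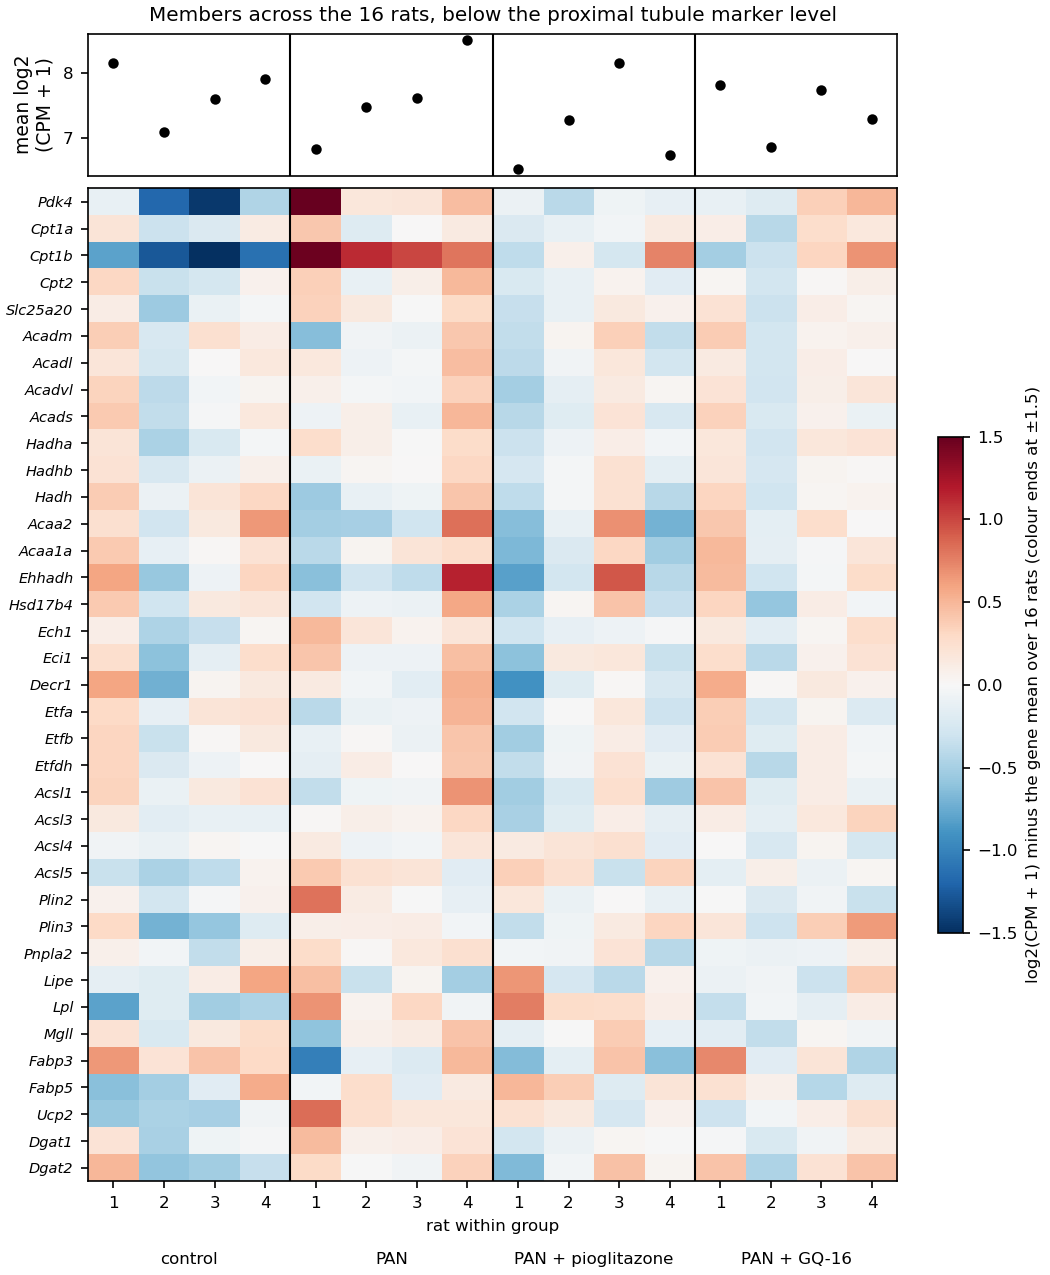
Each of the 37 genes (rows) in each rat (columns), as log2(CPM + 1) minus the gene's mean over 16 rats (colour, red high, blue low), below the mean log2(CPM + 1) of 23 proximal tubule markers (upper panel). Many of the oxidation genes in the middle rows are red in PAN rat 4, where the tubule level is highest of all at 8.49, and blue in pioglitazone rat 1, where it is lowest at 6.53.

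Within groups, part of the oxidation enzymes went up and down with the proximal tubule markers in the same libraries, and others did not. The mean of 23 such markers, none of them a listed gene, ran from 6.53 to 8.49 over the 16 rats. PAN rat 4 had the highest tubule level of all and the highest value of 17 of the 37 genes, beside 13.1% of all genes. Within pioglitazone, rat 3 had the highest tubule level and the highest value of 27 of the 37 genes, beside 25.5% of all genes. The corresponding counts were 26 of 37 for control rat 1 (57.1% of all genes), 23 for PAN rat 4 (24.2%) and 20 for GQ-16 rat 1 (19.7%).

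With the tubule level added to the model, less than 0.5 of the within-group SD was left for 14 of the 37 genes (37.8%), beside 6.29% of all genes, and for 9 (24.3%) beside 4.999% with median-ratio scaling. On the log2 scale the SD of Hsd17b4 went from 0.37 to 0.10, that of Hadh from 0.30 to 0.09, that of Acadm from 0.34 to 0.11 and that of Ehhadh from 0.63 to 0.25. The SD of Cpt1b was 0.43 without and 0.44 with the tubule level, and that of Pdk4 0.67 and 0.69. Ech1 kept 101% of its SD with the tubule level, Cpt1a 99.6%, Hadha 79.9%, Eci1 77.1% and Decr1 70.2%. Hadha and Hadhb parted here, with the SD of Hadhb going from 0.19 to 0.06 and that of Hadha from 0.22 to 0.17. With the podocyte level added instead, less than 0.5 of the SD was left for 1 of 37 genes, Plin3, from 0.34 to 0.06, beside 11.9% of all genes. The podocyte level also took the SD of Cpt1b from 0.43 to 0.30, that of Hadha from 0.22 to 0.12 and that of Ech1 from 0.20 to 0.12. With median-ratio scaling the podocyte level took Plin3 from 0.21 to 0.07 and Cpt1b from 0.35 to 0.29, while Hadha kept 96.1% and Ech1 99.98% of the SD.

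**Figure D5:**
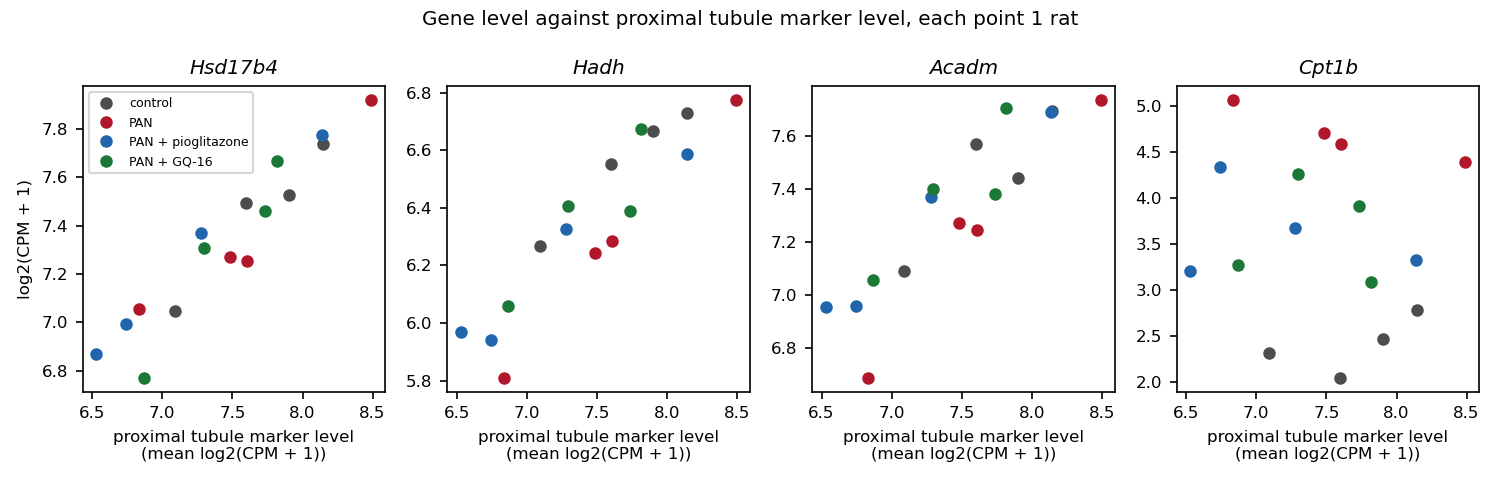
Level of Hsd17b4, Hadh, Acadm and Cpt1b (y axes, log2(CPM + 1)) against the mean log2(CPM + 1) of 23 proximal tubule markers (x axes), each point 1 rat, coloured by group. The first 3 genes climb with the tubule level across all groups, and Cpt1b separates PAN from control over the tubule levels measured.

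With the tubule level in the model, 6 listed genes were called higher in PAN and 2 lower, beside 29.3% and 1.79% of all genes. Acsl5 (0.42, adjusted p = 0.0295) and Ech1 (0.40, adjusted p = 0.0416) joined Pdk4, Cpt1b, Lpl and Ucp2 among those that rose, by limma. Hadh fell by 0.24 (adjusted p = 0.0484) and Fabp3 fell by 0.55 (adjusted p = 0.0219). With median-ratio scaling as well, Cpt1b rose by 1.90 (adjusted p = 0.000564), and Hadh (-0.39, adjusted p = 0.0229), Fabp3 (-0.61, adjusted p = 0.0432) and Lipe (-0.67, adjusted p = 0.0463) fell, beside 7.25% of all genes called higher and 3.37% lower. Cpt1b rose and Hadh and Fabp3 fell under both of these fits. With the library number as covariate in place of the tubule level, the differences of Hadh and Fabp3 were -0.030 and -0.073 and not called (adjusted p = 0.946 and 0.900 by limma), and with median-ratio scaling as well they were -0.24 and -0.28 and not called (adjusted p = 0.622 and 0.735). PAN rat 4, with the highest tubule level, is also the only PAN rat with a library number under 25. Pdk4, Lpl and Ucp2 were not called with the tubule level and median-ratio scaling together. Their differences were then 1.25, 0.31 and 0.34 (adjusted p = 0.0557, 0.325 and 0.106 by limma).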

How the data were processed

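Poly(A) RNA of sieved glomeruli from 16 rats, 4 in each of 4 groups, was sequenced as read pairs of 150 bp over 2 lanes, per the labels' protocols and the series' design text. The submitters' processing notes name HISAT2, featureCounts of Subread, limma and build Rnor_6.0, with no versions. The deposited table holds log2 CPM values for 13222 genes. Undoing the log2 step, with an offset of 0.5 reads per gene and 1 read per library, gave whole reads for 100% of the values within 0.05 of a read, so depth is known. Every deposited gene reaches 2 CPM in at least 8 libraries. A count of 3 reads is 0.14 to 0.22 CPM, which covers counting error only.

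From the deposited log2 values, log2(CPM + 1) was computed and fitted with limma 3.58.1 in R 4.3.3 as 4 group means over all 16 rats, with a trend of variance on level and Benjamini-Hochberg adjustment over 13222 genes. Tests were two-sided, for 6 comparisons. The added 1 CPM understates the change of low genes. Alternatives were median-ratio scaling and voom on the recovered reads, quantile normalization, totals without mitochondrial genes, a pseudocount of 0.1 CPM, a mean of at least 10 CPM, only the groups compared, the proximal tubule level or the library number as covariate, and leaving out each rat. Added after seeing the data were the podocyte level as covariate, the tubule or library number covariate with median-ratio scaling, and only library numbers under 25. Only a fit of PAN against control without a covariate was tested on simulated data, not the fit of 4 group means or the alternatives.

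The genes, the marker lists and the pathway lists were chosen with earlier results of these data known. Per-rat values are given for every listed gene called in any comparison and, whatever their values, for Pdk4, Cpt1a, Cpt1b, Plin2, Lpl, Ucp2, Fabp3 and Acadm. The 3 genes with the smallest p are named where a drug comparison has no call, and up to 3 called genes of each pathway list. Some of the latter are not reported here. Acadsb, Chkb and the other Pdk genes were chosen after their values were seen. Pparg, Angptl4, Fabp4 and Cd36 are not analysed here. Rat numbers only name the rats, in the order of the deposited samples. The labels describe separate replicates, and p-values measure the spread between these libraries. No 2 libraries of a group agreed within counting error, with a chi-square per gene of 13.3 to 297. Promoters are RefSeq's for GRCr8 and were used for sequence only, since the table rests on another build.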

Additional observations from a re-analysis of the deposited data

Results flagged for a closer look

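Of 148 sets of 4 rats (37 genes in 4 groups) 7 held a rat far from the other 3, with a gap past Dixon's 95% limit for 4 samples, and chance alone gives about 7.4. Pdk4 stood at 35.6 CPM in PAN rat 1, beside 6.20 to 7.88 CPM in the other PAN rats. Ucp2 stood at 277 CPM in the same rat, beside 174 to 184 CPM. That rat also had the highest macrophage and leukocyte marker mean of the 16, 5.51, and the part of this was not tested. Acaa2, the mitochondrial thiolase, stood at 270 CPM (269.9) in PAN rat 4, beside 106 to 122 CPM, and that rat had the highest proximal tubule marker mean, 8.49. Pdk4 was low in pioglitazone rat 2, at 3.84 CPM beside 4.92 to 5.16 CPM. Hadha was low in GQ-16 rat 2, at 131 CPM beside 181 to 185 CPM, a library in which mitochondrial reads took 31.4%. Acsl3 was high in control rat 1, at 30.2 CPM beside 24.4 to 25.2 CPM, and Pnpla2 was high in GQ-16 rat 4, at 33.5 CPM beside 29.4 to 29.9 CPM.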

How the results depend on the processing

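In PAN against control 4 genes were called as deposited. The count was 2 with median-ratio scaling and with totals without mitochondrial genes, 1 with quantile normalization, with voom, with the library number covariate and with that covariate plus median-ratio scaling, and 8 with the tubule level as covariate. With 1 rat left out it ran from 3 to 7, and 7 was the count without control rat 1, when Ech1, Plin3 and Dgat1 were added. Cpt1b was called in each of these. In pioglitazone against control 2 were called, with 1 under median-ratio scaling, quantile normalization, totals without mitochondrial genes and the library number covariate plus median-ratio scaling, 0 with voom and with the tubule level plus median-ratio scaling, and 0 to 3 with 1 rat left out, the 0 coming without control rat 3 or pioglitazone rat 2 and 1 without control rat 2 or pioglitazone rat 4. In GQ-16 against control 0 were called, with 1 under median-ratio scaling alone or with the tubule or library number covariate, and 0 to 2 with 1 rat left out, the 2 being Cpt1b and Plin3 without control rat 1. In GQ-16 against PAN 1 was called, Cpt1b, with the podocyte level as covariate. Against PAN for pioglitazone, and between the drugs, 0 were called in every alternative run.

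Cpt1a in PAN turned from 0.14 to -0.16 with median-ratio scaling, quantile normalization, voom and either covariate plus median-ratio scaling, -0.17 with totals without mitochondrial genes and -0.14 with the podocyte level. Plin2 turned from 0.24 to -0.054 with median-ratio scaling, -0.057 with quantile normalization and voom, -0.065 with totals without mitochondrial genes and -0.13 with the tubule level plus median-ratio scaling. Acadm turned from -0.21 to 0.045 with the library number covariate. None of these 3 was called anywhere, and the cause was not tested. The half-width of the 95% intervals, 0.24 to 0.89 on the log2 scale with a median of 0.40, limits what differences could be seen. The filter at 10 CPM left out Pdk4. No paired analysis was possible because the labels give no replicate numbers that groups share.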
